A study of Mus musculus with 26 samples.

Results

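The genes described here are 10 transcription factors and regulators of myeloid progenitors, namely Spi1, Gfi1, Myb, Myc, Mycn, Runx1, Klf4, Ikzf1, Etv6 and Id2. They were chosen by symbol, for their known roles, from the 52636 genes that the files list, and all 10 passed the filter on low counts in every comparison. The study examined neutrophil serine protease 4 (NSP4, encoded by Prss57), a protease of the azurophilic granules, in myeloid progenitors and mast cells. RNA sequencing covered 26 mouse libraries. There were 4 wild-type and 4 Prss57-/- libraries each of granulocyte-macrophage progenitors (GMPs) and common myeloid progenitors (CMPs), sorted from female bone marrow, and 5 wild-type and 5 Prss57-/- libraries of bone marrow-derived mast cells (BMMCs) from male mice.

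GMPs were sorted as Lin-, SCA-1-, CD117+, CD34+, CD16/32hi cells, and CMPs by the same gate with CD16/32lo. BMMCs, named BMMC-P3 in the labels, were obtained by culture of bone marrow GMPs in interleukin-3 and stem cell factor. The Prss57-/- mice, of the study's strain 2, lack exon 2 of Prss57 in the germline, so that every cell of the animal carries the deletion and not GMPs alone. The age of the mice and whether a library pooled animals are not given in the sources used here. BMMCs and progenitors also differed in sex and in sequencing run, and these cannot be told apart from the cell type.

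Between 32078404 and 53264762 reads were counted on genes per progenitor library, and between 18627626 and 28647216 per BMMC library. Levels are given as normalized RPKM, which is the read count of a gene divided by its length and by the library's size factor, and can therefore be compared between genes. In each list of values the libraries of a group stand in the order of their numbers. Prss57 was at 123 to 198 normalized RPKM in wild-type GMPs and at 17.0 to 32.03 in wild-type CMPs, against at most 0.178 and 0.0125 in Prss57-/- GMPs and CMPs. In wild-type BMMCs it was at 0.0354 to 0.451 normalized RPKM, and no read was counted in the 5 Prss57-/- BMMC libraries. The summed level of 9 mast cell markers was 25527 to 76779 normalized RPKM in BMMCs and at most 706 in the progenitors. CMPs also held 7 megakaryocyte-erythroid markers, summing to 1584 to 3762 normalized RPKM against 57.6 to 130.2 in GMPs.

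Spi1 encodes PU.1, an Ets factor that commits progenitors to the myeloid lineages, and Gfi1 encodes a zinc finger repressor that favours granulocytes over monocytes. Myb, Myc and Mycn encode factors that maintain immature and dividing progenitors, and Runx1 the DNA-binding subunit of core binding factor. Klf4 promotes monocyte differentiation, Ikzf1 encodes Ikaros, Etv6 an Ets repressor, and Id2 an inhibitor that binds E proteins and keeps them from DNA. CMPs give rise to GMPs and to megakaryocyte-erythroid progenitors, and GMPs to neutrophils, monocytes and, in interleukin-3 and stem cell factor, mast cells.

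Spi1 (ENSMUSG00000002111) lies on chromosome 2 of GRCm38 from 91082390 to 91115756 on the forward strand, and Gfi1 (ENSMUSG00000029275) on chromosome 5 from 107716657 to 107726036 on the reverse strand. Mycn (ENSMUSG00000037169) occupies chromosome 12 from 12936093 to 12941914 and Klf4 (ENSMUSG00000003032) chromosome 4 from 55527143 to 55532466, both on the reverse strand. Id2 (ENSMUSG00000020644) is also on chromosome 12, from 25093799 to 25097140, and Myb (ENSMUSG00000019982) on chromosome 10 from 21124935 to 21160984. In GENCODE M21, 5 of the 10 genes overlap another gene. The opposite-strand transcript A430072P03Rik had up to 7.96% as many reads as Gfi1 in a library, and the genes overlapping Myb, Runx1, Ikzf1 and Etv6 at most 0.483% of the member's reads. The kit kept the strand of the RNA, but strand-specific counting is not stated, so the reads of such pairs may be mixed.

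Klf4, Gfi1 and Mycn showed the widest contrasts between GMPs and CMPs in both genotypes, and the DNA before their start sites is shown for that reason. RefSeq promoters of GRCm38.p6 were matched for 8 of the 10 genes, all except Spi1 and Myc. The sequences are given 5' to 3' on the strand of the gene, and capitals mark matches to core motifs searched on both strands, GAGGAA for PU.1, AAATCA for Gfi1, AACGG for Myb, CACGTG for Myc and TGTGGT for Runx factors. The Klf4 and Gfi1 stretches are the 250 bases before a RefSeq start, chr4:55532476-55532725 for Klf4 and chr5:107724344-107724593 for the second start of Gfi1, both on the reverse strand. The 250 bases before the other Gfi1 start lie in annotated exons and are not shown. The Mycn stretch is the 172 bases directly before the annotated exon, chr12:12941915-12942086 on the reverse strand. None of the 3 stretches overlaps an annotated exon.
Klf4: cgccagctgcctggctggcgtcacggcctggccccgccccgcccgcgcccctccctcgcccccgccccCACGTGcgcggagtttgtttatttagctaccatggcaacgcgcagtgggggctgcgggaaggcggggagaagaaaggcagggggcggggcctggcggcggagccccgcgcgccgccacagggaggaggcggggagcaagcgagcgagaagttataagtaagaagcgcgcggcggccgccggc
Gfi1: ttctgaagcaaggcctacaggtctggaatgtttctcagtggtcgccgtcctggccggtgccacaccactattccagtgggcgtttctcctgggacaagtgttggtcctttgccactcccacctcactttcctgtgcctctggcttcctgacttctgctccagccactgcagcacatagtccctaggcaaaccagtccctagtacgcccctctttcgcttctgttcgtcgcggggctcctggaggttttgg
Mycn: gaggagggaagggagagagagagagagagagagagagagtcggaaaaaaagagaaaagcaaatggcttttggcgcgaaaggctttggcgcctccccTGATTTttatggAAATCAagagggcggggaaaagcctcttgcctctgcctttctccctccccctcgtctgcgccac

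The Klf4 stretch held 1 match, to the Myc motif, with 181 bases between the first base of the match and the RefSeq start. This motif was found in 6.02% of the same 250-base windows of 32851 promoter entries. The Gfi1 stretch held none of the 5 motifs. The Mycn stretch held 2 matches to the Gfi1 motif, on opposite strands, with 153 and 141 bases between their first bases and the RefSeq start. Of promoter windows of the same length as this stretch, 9.45% held at least 1 match to the Gfi1 motif. Matches to such short motifs are descriptions of the sequence and say nothing of binding.

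**Figure D1:**
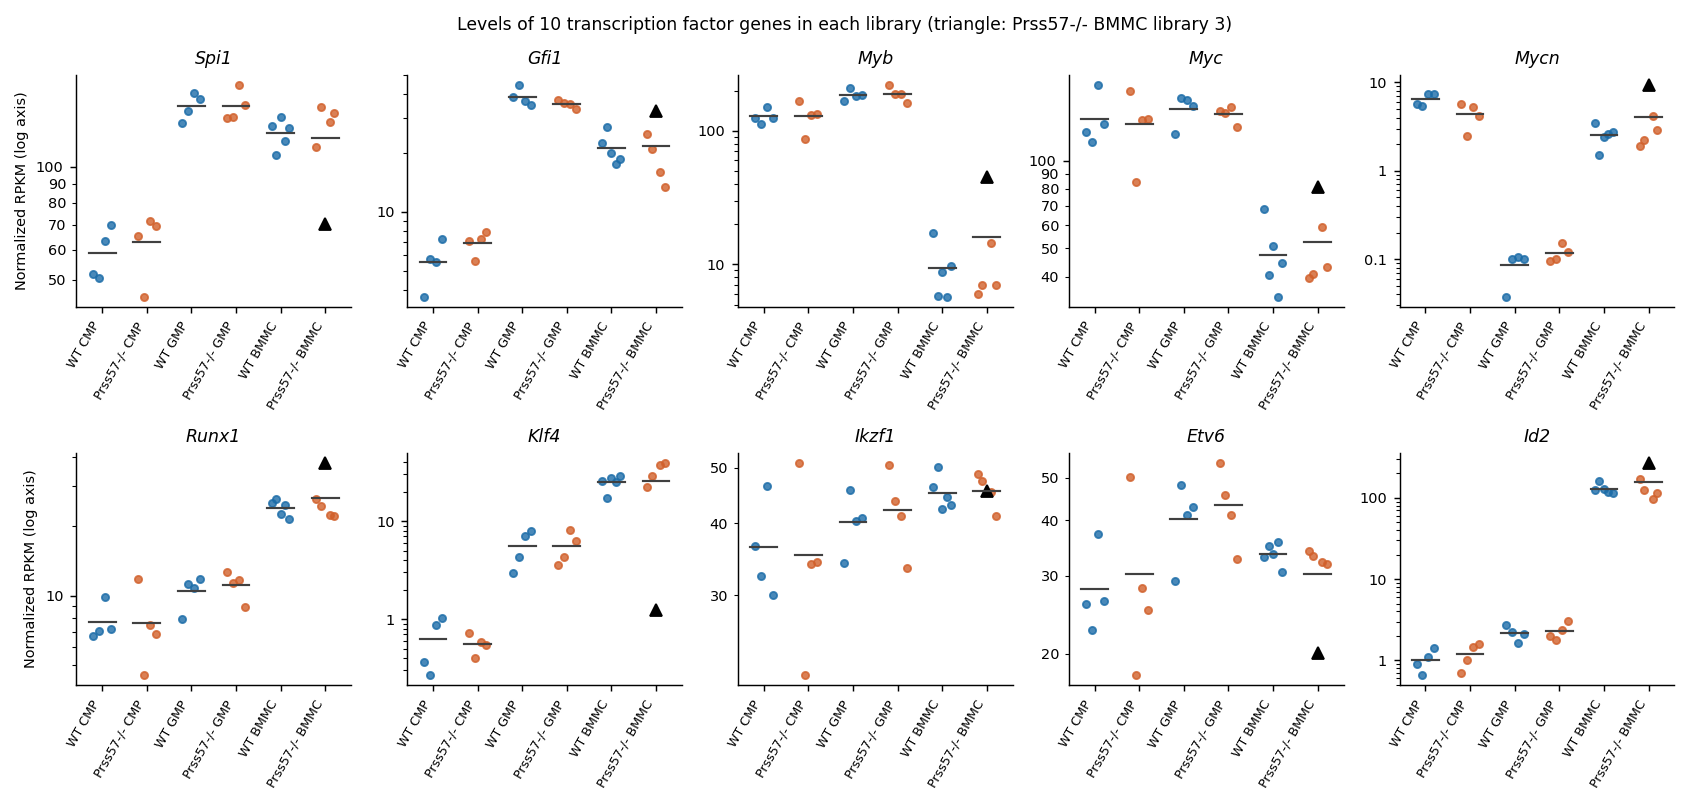
Normalized RPKM (log axis, a different range in each panel) of the 10 genes in each library, with 1 point per library, blue for wild type and orange for Prss57-/-, and a line at the group mean. Mycn sits between 0.0379 and 0.151 in the 8 GMP libraries and at 1.49 or more in the other 18, and the triangle marks Prss57-/- BMMC library 3.

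The first comparison asks which of the 10 genes distinguished GMPs from CMPs in wild-type mice. Spi1, Gfi1, Klf4, Id2 and Myb were higher in GMPs, and Mycn was lower. Gfi1 rose 7.03-fold, Klf4 8.87-fold, Spi1 2.49-fold and Id2 2.15-fold, whereas Mycn fell 72.8-fold. Myc, Runx1, Ikzf1 and Etv6 did not pass the test. By the quasi-likelihood test of edgeR, a gene is said to differ when its p, adjusted over all genes by Benjamini and Hochberg, is under 0.01, and 6 of the 10 genes differed, 5 of them by at least 2-fold. Among all 14967 genes tested, 21.0% differed and 12.8% differed by at least 2-fold. The median log2 fold change of the 10 genes was 0.55, against -0.02 over all genes. Leaving out 1 library at a time gave counts of 4 to 8 of the 10 genes, as described gene by gene below, and of 2075 to 5128 of all genes. The p-values measure the spread between the libraries, which the study calls biological replicates.

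Among the factors that commit cells to the myeloid lineages, Spi1 was at 51.6, 50.5, 63.5 and 70.0 normalized RPKM in wild-type CMPs and at 131, 141, 157 and 151 in wild-type GMPs. In Prss57-/- mice, Spi1 was at 65.3, 45.1, 71.4 and 69.6 in CMPs and at 135, 136, 165 and 146 in GMPs. Every GMP library lay above every CMP library of either genotype. By edgeR the GMPs were higher by 1.32 on the log2 scale in wild-type mice (standard error 0.13, adjusted p = 4.64e-05) and by 1.25 in Prss57-/- mice (standard error 0.19, adjusted p = 0.00210). In bulk RNA, fewer cells that express a gene and less of its RNA per cell cannot be told apart.

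Gfi1, the repressor that favours granulocytes, was at 3.70, 5.73, 5.54 and 7.27 normalized RPKM in wild-type CMPs and at 38.3, 44.3, 36.9 and 35.1 in wild-type GMPs. The Prss57-/- CMPs had 7.09, 5.62, 7.31 and 7.87 and the Prss57-/- GMPs 37.0, 35.8, 35.6 and 33.5. No CMP library exceeded 7.87 and no GMP library was below 33.5. On the log2 scale Gfi1 rose by 2.81 in wild-type mice (standard error 0.19, adjusted p = 3.55e-06 in edgeR) and by 2.39 in Prss57-/- mice (standard error 0.16, adjusted p = 4.29e-05). Markers of late neutrophils, 7 genes, summed to 820 to 5165 normalized RPKM in GMPs and to 12.2 to 82.5 in CMPs, and 4 markers of basophils and eosinophils summed to 3464 to 6469 in GMPs and to 25.0 to 127 in CMPs. The part of either list in the level of Gfi1 was not tested.

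Klf4, which promotes monocyte differentiation, had the lowest mean of the 10 genes in CMPs, with levels of 0.361, 0.270, 0.860 and 1.04 normalized RPKM in wild-type and of 0.723, 0.400, 0.585 and 0.544 in Prss57-/- libraries. Its level in GMPs was 2.92, 4.25, 7.10 and 7.89 in wild-type and 3.60, 4.28, 8.19 and 6.32 in Prss57-/- libraries. The groups did not overlap, although GMP libraries 1 and 2 of both genotypes had lower levels than libraries 3 and 4. Between 34 and 165 reads lay behind each CMP value. Its rise on the log2 scale was 3.15 in wild-type mice (standard error 0.47, adjusted p = 5.67e-04 in edgeR) and 3.34 in Prss57-/- mice (standard error 0.33, adjusted p = 2.22e-04).

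Mycn, a member of the Myc family found mainly in immature cells, showed the opposite pattern. It was at 5.71, 5.40, 7.33 and 7.41 normalized RPKM in wild-type CMPs and at 0.0379, 0.1001, 0.106 and 0.0998 in wild-type GMPs. In Prss57-/- mice it was at 5.75, 2.46, 5.29 and 4.18 in CMPs and at 0.0946, 0.101, 0.151 and 0.120 in GMPs. The GMP libraries held 5 to 21 Mycn reads each, and the CMP libraries 194 to 1301. Every GMP library thus lay far below every CMP library. Mycn fell by 6.19 on the log2 scale in wild-type mice (standard error 0.28, adjusted p = 5.13e-07 in edgeR) and by 5.21 in Prss57-/- mice (standard error 0.36, adjusted p = 5.18e-05).

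Myc itself did not pass the test in either genotype, at 125, 116, 181 and 134 normalized RPKM in wild-type CMPs and 124, 163, 162 and 154 in wild-type GMPs. In Prss57-/- mice it was at 173, 84.2, 138 and 139 in CMPs and 148, 145, 152 and 130.3 in GMPs, again with overlap. The 2 paralogues stood in different proportion in the 2 cell types. The Mycn level was 2.92% to 5.54% of the Myc level in the CMP libraries and 0.0306% to 0.0993% in the GMP libraries. The 95% interval of the log2 fold change of Myc ran from -0.23 to 0.49 in wild-type and from -0.36 to 0.65 in Prss57-/- mice, both within a 2-fold change.

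Id2, the E protein inhibitor, was at 0.897, 0.662, 1.09 and 1.43 normalized RPKM in wild-type CMPs and at 2.69, 2.20, 1.65 and 2.12 in wild-type GMPs, without overlap. In Prss57-/- libraries it was at 0.691, 1.02, 1.47 and 1.59 in CMPs and at 2.00, 1.79, 2.34 and 3.08 in GMPs. Id2 also did not overlap in these libraries. In wild-type mice it rose by 1.10 on the log2 scale (standard error 0.26, adjusted p = 0.00767 in edgeR), and in Prss57-/- mice the log2 value of 0.99 (standard error 0.31) had an adjusted p of 0.0489, which missed the threshold. Without wild-type CMP library 1 or 2 or wild-type GMP library 2 or 4, its adjusted p was 0.0187 to 0.0277, and its log2 fold change across the alternatives was 0.95 to 1.32.

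Myb, which is needed for the renewal of progenitors, was at 125, 112, 151 and 125 normalized RPKM in wild-type CMPs and at 168, 207, 184 and 186 in wild-type GMPs. The groups did not overlap, and Myb rose by 0.55 on the log2 scale (standard error 0.12, adjusted p = 0.00603 in edgeR). Without wild-type CMP library 1, 2 or 4 or wild-type GMP library 2, 3 or 4, the adjusted p was 0.0186 to 0.0236. The Prss57-/- libraries had 167, 86.1, 130.3 and 133 in CMPs and 219.9, 188, 189 and 160.4 in GMPs, and these groups overlapped. The log2 difference was 0.59 here (standard error 0.23), and the adjusted p 0.0872.

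The means of Runx1, Ikzf1 and Etv6 in GMPs and CMPs lay within 2-fold of each other. Runx1 was at 6.73, 7.02, 9.92 and 7.15 normalized RPKM in wild-type CMPs and 7.92, 11.3, 10.8 and 11.8 in wild-type GMPs, giving 0.46 on the log2 scale (standard error 0.17, adjusted p = 0.0559 in edgeR). Etv6 was at 25.97, 22.6, 37.3 and 26.4 in CMPs and 29.2, 48.2, 41.1 and 42.8 in GMPs, giving 0.54 (standard error 0.19, adjusted p = 0.0488). Both genes passed without wild-type CMP library 3, and also without wild-type GMP library 1. Without the CMP library, the adjusted p was 0.00549 for Runx1 and 0.00460 for Etv6, and without the GMP library it was 0.00709 and 0.00567. More of all genes also differed in these fits, 4699 of 15253 tested and 5128 of 15339. With all libraries, 3140 of 14967 differed. Ikzf1, at 36.4 ± 7.27 (SD, n = 4) in CMPs and 40.3 ± 4.77 (SD, n = 4) in GMPs, had an adjusted p of 0.423.

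The same comparison in Prss57-/- mice asks whether the contrast between GMPs and CMPs is present without NSP4. Here 4 of the 10 genes differed, and all 4 by at least 2-fold. Spi1, Gfi1 and Klf4 were higher in GMPs and Mycn was lower. Of the 14959 genes tested, 9.83% differed and 8.42% differed by at least 2-fold. All 10 log2 fold changes had the same sign as in wild-type mice. Of the CMP libraries, Prss57-/- library 1 had the highest and Prss57-/- library 2 the lowest slope on gene length (described below). With any single library left out, 4 of the 10 genes differed. Without CMP library 1, 2895 of the 15204 genes tested differed. Without CMP library 2 the same 4 genes differed, in a fit in which 1817 of the 15297 genes tested differed. The log2 fold changes of these 4 were then 1.11 for Spi1, 2.29 for Gfi1, 3.21 for Klf4 and -5.41 for Mycn. Myc, which did not pass the test with or without this library, was then at -0.03.

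**Figure D2:**
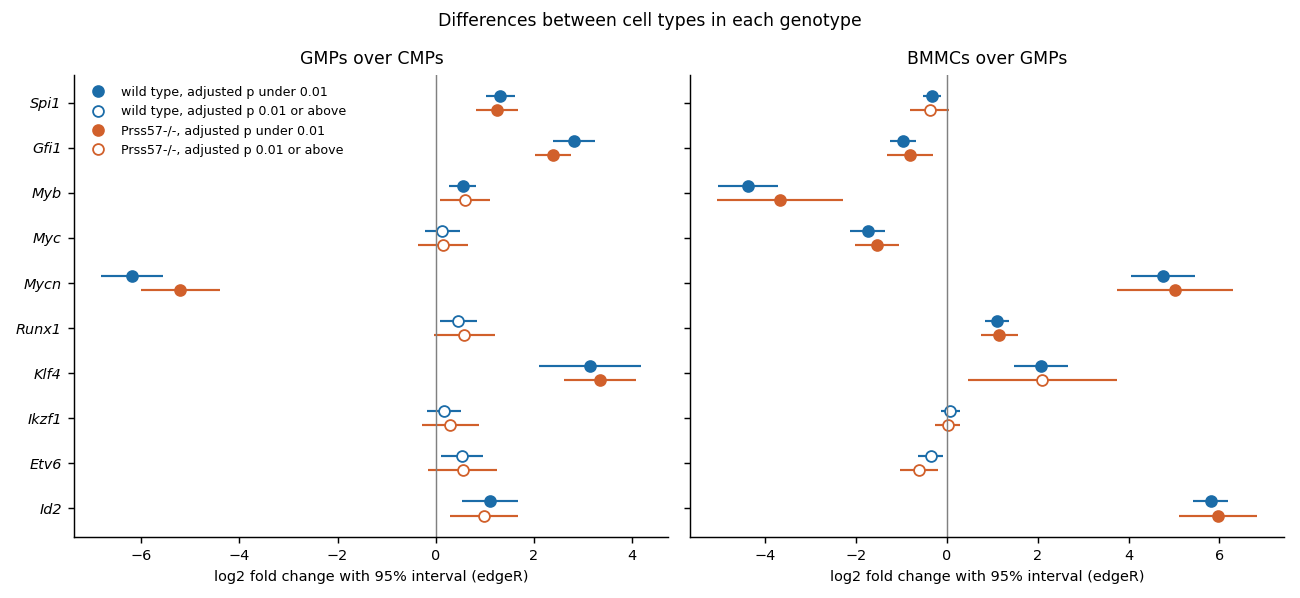
Log2 fold changes of GMPs over CMPs (left) and of BMMCs over GMPs (right) for each gene, in wild-type (blue) and Prss57-/- mice (orange), with 95% intervals from edgeR, filled where the adjusted p is under 0.01. In the left panel Mycn lies at -6.19 and -5.21 while Gfi1 and Klf4 lie between 2.39 and 3.34, and in the right panel Id2 lies at 5.81 and 5.98 and Myb at -4.39 and -3.67.

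Related genes, that is partners, paralogues and known targets of the 10 factors, were read from lists that were set with earlier results of these data known. Of 74 related genes tested in wild-type progenitors, 15 were higher in GMPs and 8 were lower, and in Prss57-/- progenitors 10 of 75 were higher and 5 lower, where 21.0% and 9.83% of all genes tested differed in either direction. Their median log2 fold change was 0.27 in wild-type and 0.23 in Prss57-/- mice, against -0.02 and -0.03 over all genes tested. Among the partners and antagonists of PU.1, Cebpa, a partner in granulocyte differentiation, rose from 50.1 ± 11.9 to 169 ± 26.9 normalized RPKM (SD, n = 4) in wild-type mice. Gata1, the erythroid factor that opposes PU.1, fell from 82.9 ± 8.66 to 9.83 ± 1.31 (SD, n = 4). Gfi1b, the paralogue of Gfi1 used in megakaryocyte-erythroid cells, fell from 63.0 ± 4.91 to 6.23 ± 1.19 (SD, n = 4), in the opposite direction to Gfi1. The megakaryocyte-erythroid markers moved with them, and their part in these differences was not tested.

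Of 6 known PU.1 targets, 4 were higher in GMPs of wild-type mice and 3 in GMPs of Prss57-/- mice. Csf2ra, the receptor subunit for GM-CSF, rose by 2.05 on the log2 scale (standard error 0.14, adjusted p = 3.27e-06 from edgeR) and Itgam, the integrin CD11b, by 1.81 (standard error 0.20, adjusted p = 8.38e-05). Of 6 genes known to be repressed by Gfi1, 5 were tested, of which 3 were lower and 1 was higher in GMPs of either genotype. Meis1, a homeobox gene of early progenitors, had a log2 fold change of -1.97 in wild-type mice and of -1.88 in Prss57-/- mice. Csf1, the growth factor of macrophages, moved the other way, at 2.72 and 2.67.

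Of the 5 known Myb targets, 2 rose in both genotypes. Mpo and Elane, which encode myeloperoxidase and neutrophil elastase of the azurophilic granules, had log2 fold changes of 2.29 and 3.72 in wild-type mice. Kit, Bcl2 and Cd34 did not pass the test. Of 12 known Myc targets, 2 were lower in GMPs of wild-type mice, and their median log2 fold change was -0.31 in wild-type and -0.37 in Prss57-/- mice. Among the remaining paralogues, Ikzf3 (Aiolos), Id1 and Ets1 were higher in GMPs of both genotypes, with wild-type log2 fold changes of 4.92, 2.36 and 2.69. Ikzf3 was nevertheless low in GMPs, at 0.797 ± 0.0914 normalized RPKM (SD, n = 4).

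The next comparison asks how the levels of the 10 genes in wild-type BMMCs stood to those in the GMPs from which such cultures start. Id2, Mycn, Klf4 and Runx1 were higher in BMMCs, by 56.1-fold, 27.1-fold, 4.21-fold and 2.16-fold. Myb was 21.0-fold lower, Myc 3.37-fold, Gfi1 1.95-fold and Spi1 1.26-fold. Ikzf1 and Etv6 did not pass the test. In all, 8 of the 10 genes differed and 6 by at least 2-fold, in a comparison in which 74.4% of the 14754 genes tested differed and 51.7% by at least 2-fold. The share of the members that differed was thus near that of all genes.

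Id2 was at 126, 160.2, 129, 119 and 115 normalized RPKM in wild-type BMMCs, and no progenitor library exceeded 3.08. Its mean of 129.8 was the highest of the 10 genes in wild-type BMMCs, whereas it ranked ninth in wild-type CMPs and GMPs. Id2 was higher by 5.81 on the log2 scale than in GMPs (standard error 0.18, adjusted p = 7.02e-11 in edgeR) and by 6.91 than in CMPs (standard error 0.22, adjusted p = 3.74e-11). Both comparisons use the same BMMC libraries, which holds for all values over GMPs and over CMPs given here.

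Myb was at 17.2, 5.75, 8.69, 5.74 and 9.79 normalized RPKM in wild-type BMMCs, below the lowest progenitor library at 86.1. In GMPs it was the highest of the 10 genes. Myb fell by 4.39 on the log2 scale against GMPs (standard error 0.30, adjusted p = 5.32e-08 in edgeR). Myc was at 68.1, 40.6, 50.8, 34.2 and 44.6 and fell by 1.75 on the log2 scale (standard error 0.18, adjusted p = 1.69e-06), again without overlap with the GMP libraries.

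Mycn, nearly absent from GMPs, was at 3.44, 1.49, 2.42, 2.59 and 2.74 normalized RPKM in wild-type BMMCs, which lay between GMPs and CMPs. It was higher than in GMPs by 4.76 on the log2 scale (standard error 0.32, adjusted p = 4.92e-08 from edgeR) and lower than in CMPs, where it fell by 1.44 (standard error 0.20, adjusted p = 2.11e-05). Its level in BMMCs was 3.67% to 7.55% of that of Myc in the wild-type libraries.

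Klf4 was at 25.6, 17.1, 27.3, 25.2 and 29.0 normalized RPKM and Runx1 at 25.2, 26.3, 22.7, 24.6 and 21.4 in wild-type BMMCs. Both lay above all progenitor libraries. The log2 fold change of Klf4 was 2.07 over GMPs (standard error 0.27, adjusted p = 1.50e-05 in edgeR) and 5.21 over CMPs (standard error 0.36, adjusted p = 2.28e-08). For Runx1 it was 1.11 over GMPs (standard error 0.12, adjusted p = 2.99e-06) and 1.55 over CMPs (standard error 0.12, adjusted p = 9.61e-08). In Prss57-/- BMMC library 3, which had the fewest macrophage markers, Klf4 was also low, as given below.

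Gfi1 was at 22.4, 27.2, 19.8, 17.6 and 18.7 normalized RPKM in wild-type BMMCs, below all GMP and above all CMP libraries. Spi1 was at 128, 107, 135, 117 and 127, where 1 library exceeded the lowest GMP library. The log2 fold changes over GMPs were -0.96 for Gfi1 (standard error 0.13, adjusted p = 2.12e-05 from edgeR) and -0.33 for Spi1 (standard error 0.09, adjusted p = 0.00568). Without wild-type GMP library 3 or 4 or wild-type BMMC library 2, 4 or 5 the adjusted p of Spi1 was 0.0125 to 0.0228, and with RLE size factors it was 0.0177. Etv6 was at 33.6 ± 2.03 normalized RPKM (SD, n = 5) in BMMCs, with a log2 fold change of -0.35 over GMPs and an adjusted p of 0.0196, or 5.81e-05 without wild-type GMP library 1. Ikzf1 was at 45.3 ± 3.10 (SD, n = 5), with a log2 fold change of 0.08 over GMPs (95% interval -0.14 to 0.29).

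Against wild-type CMPs, 8 of the 10 genes differed and 7 by at least 2-fold, where 77.2% of the 15007 genes tested differed and 57.5% by at least 2-fold. Spi1, Gfi1, Runx1, Klf4 and Id2 were higher in BMMCs and Myb, Myc and Mycn were lower. Spi1 had a log2 fold change of 0.97 (adjusted p = 5.36e-06 in edgeR) and Gfi1 of 1.83 (adjusted p = 9.52e-07). Ikzf1 and Etv6 had log2 fold changes of 0.22 and 0.17 with adjusted p-values of 0.101 and 0.230. Without wild-type CMP library 3, these were 0.36 and 0.33, with adjusted p-values of 0.00179 and 0.00130 from edgeR. All 10 genes differed in that fit, in which 12031 of the 15208 genes tested differed.

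Prss57-/- BMMC library 3 stood apart from the other 9 BMMC libraries. The 10 markers of macrophages and dendritic cells all lay below the other libraries, with a sum of 165 against 1740 to 2955 normalized RPKM. Csf1r, the receptor for the macrophage growth factor, was at 12.3 against 106 to 176 and C1qa at 17.4 against 149 to 319. Of 9 mast cell markers, 7 lay above the other libraries, and the sum was 76779 against 25527 to 47305. Macrophage and dendritic cell markers were thus present in BMMC libraries of both genotypes, while the progenitor libraries had sums of 72.0 to 142. Other sums were also low in library 3, at 27.6 against 115 to 266 normalized RPKM for 7 late neutrophil markers, 113 against 309 to 615 for 4 basophil and eosinophil markers and 1.63 against 13.7 to 28.4 for 7 lymphoid markers. Gene by gene, 4, 2 and 1 of these lay below the other 9 libraries and 0, 1 and 1 above. Of the lymphoid markers, 6 were under 1 in the other 9 libraries. The sum of 5 GMP markers was higher, at 1168 against 439 to 1088. That of 7 megakaryocyte-erythroid markers, at 1174, lay within the 867 to 1201 of the others, with 4 genes above and 1 below.

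Among the 10 genes, Klf4, Spi1 and Etv6 were lower in this library than in any other BMMC library, 6 were higher, and only Ikzf1 lay within the range of the others. How many of all genes lay outside that range was not counted, so these counts show nothing particular to the 10 genes. Klf4 was at 1.23 normalized RPKM in library 3 and at 22.2, 28.8, 37.4 and 38.7 in Prss57-/- libraries 1, 2, 4 and 5. The median of the other 9 BMMC libraries was 22.1 times the value of library 3. Spi1 was at 70.4 in library 3 against 107 to 144 in the others, and Etv6 at 20.1 against 30.5 to 35.8.

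Of the genes that lay higher, Myb was at 45.2 normalized RPKM in library 3 and at 5.74 to 17.2 in the other 9 libraries. Mycn was at 9.30 against 1.49 to 4.19, Id2 at 266 against 95.7 to 172 and Myc at 80.9 against 34.2 to 68.1. Gfi1 was at 32.6 against 13.5 to 27.2 and Runx1 at 37.4 against 21.4 to 26.4. Gata1, which is in the list of PU.1 partners and antagonists, was at 165 against 31.1 to 51.7. Whether the share of other cell types sets these values was not tested.

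**Figure D3:**
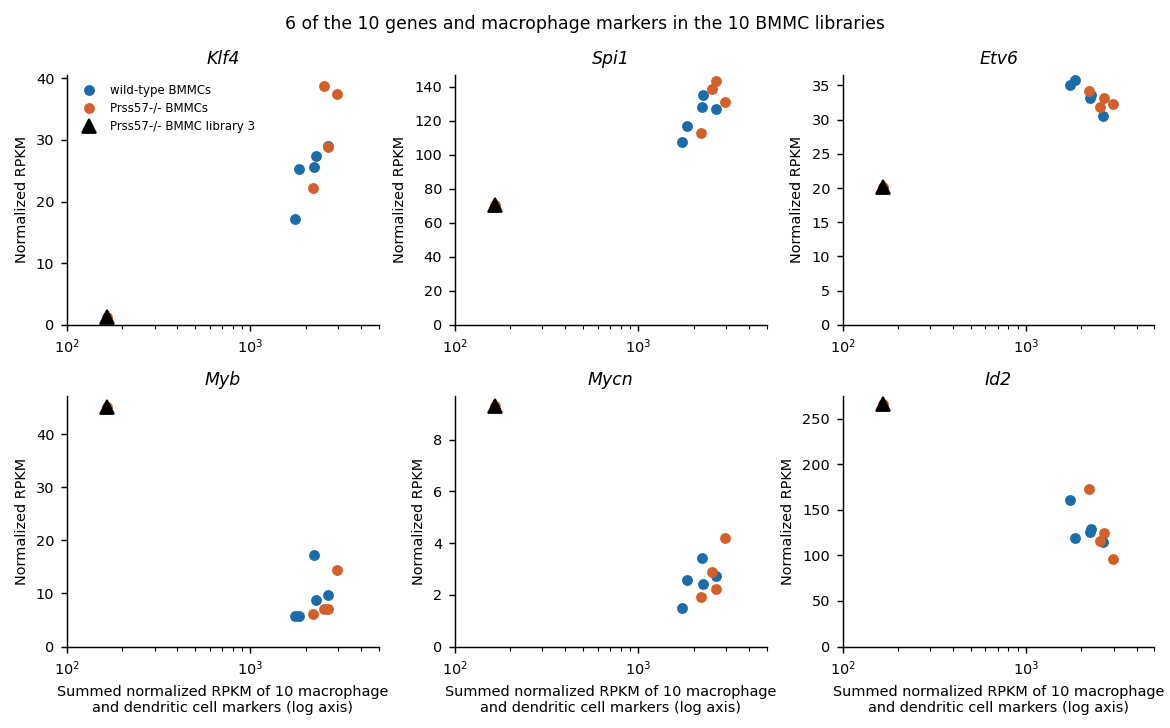
Normalized RPKM of 6 of the genes in the 10 BMMC libraries against the summed normalized RPKM of 10 macrophage and dendritic cell markers (log axis), with wild-type libraries in blue, Prss57-/- libraries in orange and Prss57-/- library 3 as a triangle. Library 3 has a marker sum of 165 and the lowest Klf4, Spi1 and Etv6, and the highest Myb, Mycn and Id2, while the other 9 libraries lie between 1740 and 2955.

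In Prss57-/- mice, 6 of the 10 genes differed between BMMCs and GMPs and 5 by at least 2-fold, where 63.3% of the 14929 genes tested differed and 47.9% by at least 2-fold. Without library 3, the count was 8, in a fit in which 10840 of the 14894 genes tested differed. Id2, Mycn and Runx1 were higher in BMMCs, with log2 fold changes of 5.98, 5.02 and 1.15 (adjusted p = 8.54e-07, 2.91e-05 and 2.70e-04 from edgeR), and 5.70, 4.49 and 1.00 without library 3. Myb and Myc were lower, at -3.67 and -1.55 (adjusted p = 4.38e-04 and 1.15e-04), and at -4.54 and -1.75 without library 3. Klf4 had 2.10 (standard error 0.73) with an adjusted p of 0.0253, and of 2.41 with an adjusted p of 7.51e-06 without library 3.

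Gfi1 was at 25.1, 21.0, 32.6, 15.9 and 13.5 normalized RPKM in Prss57-/- BMMCs, below every Prss57-/- GMP library. It fell by 0.81 on the log2 scale (standard error 0.23, adjusted p = 0.00906 in edgeR). The adjusted p was 1.95e-04 without library 3, and 0.0138 to 0.0268 with any other single library of either group left out. Spi1 had a log2 fold change of -0.38 with an adjusted p of 0.102. For Etv6 it was -0.61 with an adjusted p of 0.0128 in edgeR and 0.00895 in DESeq2, and -0.49 with an adjusted p of 0.00543 without library 3, or -0.73 with 0.00581 without Prss57-/- GMP library 4. Ikzf1 had a log2 fold change of 0.01 (95% interval -0.27 to 0.29).

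Among the related genes in wild-type mice, 38 of 79 tested were higher in BMMCs than in GMPs and 29 were lower, and in Prss57-/- mice 33 and 25 of 79. Of all genes tested, 74.4% and 63.3% differed in these comparisons. The median log2 fold change was 0.31 in wild-type mice against -0.00 over all genes. All 6 Klf paralogues were higher in wild-type BMMCs and 5 of 6 in Prss57-/- BMMCs, with median log2 fold changes of 2.58 and 2.51. Klf6 rose from 5.55 ± 0.297 normalized RPKM (SD, n = 4) in wild-type GMPs to 170.4 ± 16.9 (SD, n = 5) in BMMCs, and Klf2 from 0.684 ± 0.322 to 159.9 ± 18.4. Of 12 known Myc targets, 9 were lower in BMMCs of either genotype, with median log2 fold changes of -1.60 and -1.74. Polr1b, a subunit of RNA polymerase I, and Cdk4, a kinase of the cell cycle, fell by 1.87 and 1.92 on the log2 scale in wild-type mice (adjusted p = 5.16e-09 and 4.58e-08 from edgeR).

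Of the 4 Ikaros paralogues, Ikzf2, Ikzf4 and Ikzf5 were higher and Ikzf3 was lower in wild-type BMMCs than in GMPs, while Ikzf1 itself did not pass the test. The remodeller Chd4, in the same list, had a log2 fold change of 0.31 and an adjusted p of 0.110 in edgeR. Ikzf4 (Eos) rose from 0.0109 ± 0.0127 to 5.00 ± 0.848 and Ikzf2 (Helios) from 0.793 ± 0.121 to 5.54 ± 0.734 normalized RPKM in wild-type BMMCs, and Ikzf3 fell from 0.797 ± 0.0914 to 0.0975 ± 0.0305 (SD, n = 4 and 5). Among Id genes and E proteins, Id3 and Tcf12 were higher and Tcf3, the E protein E2A, was lower in BMMCs, with wild-type log2 fold changes of 6.00, 1.60 and -0.97. Id3 was nevertheless low in both, at 0.0129 ± 0.0258 normalized RPKM in wild-type GMPs and 1.16 ± 0.467 in BMMCs (SD, n = 4 and 5). In the Myc network, 3 of 9 genes were higher in wild-type BMMCs and 5 were lower. Its antagonists went both ways, with Mxd1, Mga and Mnt higher, at 1.33, 1.45 and 1.12, and Mxd3 and Mxi1 lower, at -2.20 and -0.65. The paralogue Mycl, the partner Max and Mlx were lower, at -3.14, -0.41 and -0.89. Mycl was low in both, at 0.430 ± 0.0996 normalized RPKM in wild-type GMPs and 0.0497 ± 0.0369 in BMMCs (SD, n = 4 and 5). Mybl2, the paralogue of Myb in dividing cells, was lower with a log2 fold change of -3.38, and the coactivators Crebbp and Ep300 were higher, at 1.54 and 1.49.

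Of 6 known PU.1 targets, 5 were higher in wild-type BMMCs and 1 was lower, and in Prss57-/- BMMCs 3 were higher and 1 lower. Itgam rose from 1.87 ± 0.291 normalized RPKM (SD, n = 4) to 62.3 ± 12.7 (SD, n = 5), and Fcgr1, a receptor for IgG, had a log2 fold change of 5.40, while Csf3r, the receptor for G-CSF, was lower at -2.97. Itgam, Fcgr1 and Csf1r are also genes of macrophages, whose markers were present in the BMMC libraries, and their part in these differences was not tested. Of 6 genes known to be repressed by Gfi1, 4 were higher and 1 was lower in BMMCs of either genotype. The immediate early gene Egr1 rose from 0.0921 ± 0.0385 (SD, n = 4) to 384 ± 68.4 normalized RPKM (SD, n = 5) in wild-type mice, and Egr2 from 0.0584 ± 0.0448 to 70.7 ± 7.70, while Hoxa9, a homeobox gene of progenitors, fell from 5.56 ± 1.05 to 0.322 ± 0.165. Of 5 known Myb targets, 2 were higher and 3 lower in wild-type BMMCs. Kit, the receptor for stem cell factor, and Bcl2, which protects cells from apoptosis, were higher with log2 fold changes of 3.18 and 2.44. Elane fell from 8488 ± 1609 normalized RPKM (SD, n = 4) to 0.255 ± 0.270 (SD, n = 5) and Mpo from 11987 ± 287 to 3.71 ± 6.26.

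Within each cell type, Prss57-/- libraries were compared with wild-type libraries to ask whether loss of NSP4 changed the 10 genes. By edgeR none of the 10 differed in GMPs, CMPs or BMMCs, none had an unadjusted p under 0.05, and limma voom and DESeq2 also called none. Among all genes tested, 0.00681% of 14689 differed in GMPs, 0.00670% of 14916 in CMPs and 0% of 13938 in BMMCs, and the 1 gene in each progenitor type was Prss57. In no cell type did the genotypes separate for any of the 10 genes.

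In GMPs the log2 fold changes of Prss57-/- over wild type ran from -0.12 for Gfi1 to 0.43 for Mycn. The 95% intervals of Spi1 (-0.23 to 0.23), Gfi1 (-0.34 to 0.09), Myb (-0.22 to 0.27) and Myc (-0.31 to 0.18) lay well within a 2-fold change. Those of Klf4 (-0.73 to 0.77) and Mycn (-0.56 to 1.42) were wider, with 5 to 21 Mycn reads per GMP library. In GMPs of both genotypes the mean of Spi1 was 145 normalized RPKM, with an SD of 11.7 and 13.9 (n = 4).

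In CMPs the intervals were wider than in GMPs for every gene except Mycn, and Mycn had the largest absolute log2 fold change, at -0.56 (95% interval -1.17 to 0.06, unadjusted p = 0.0708 from edgeR). Its mean was 6.46 ± 1.05 normalized RPKM (SD, n = 4) in wild-type and 4.42 ± 1.46 (SD, n = 4) in Prss57-/- CMPs. Without Prss57-/- CMP library 2, its log2 fold change was -0.36. Gfi1 had a log2 fold change of 0.31 (95% interval -0.19 to 0.81), and Klf4 of -0.17 (95% interval -1.17 to 0.83).

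In BMMCs the largest values were those of Myb at 0.75 (95% interval -0.59 to 2.08) and Mycn at 0.68 (95% interval -0.28 to 1.64). Both rested on Prss57-/- BMMC library 3. Without it, Myb was at -0.13 and Mycn at 0.14, and Klf4 moved from 0.04 to 0.35, with adjusted p-values of 0.960, 0.931 and 0.746 from edgeR. The narrowest interval was that of Ikzf1, from -0.15 to 0.17.

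**Figure D4:**
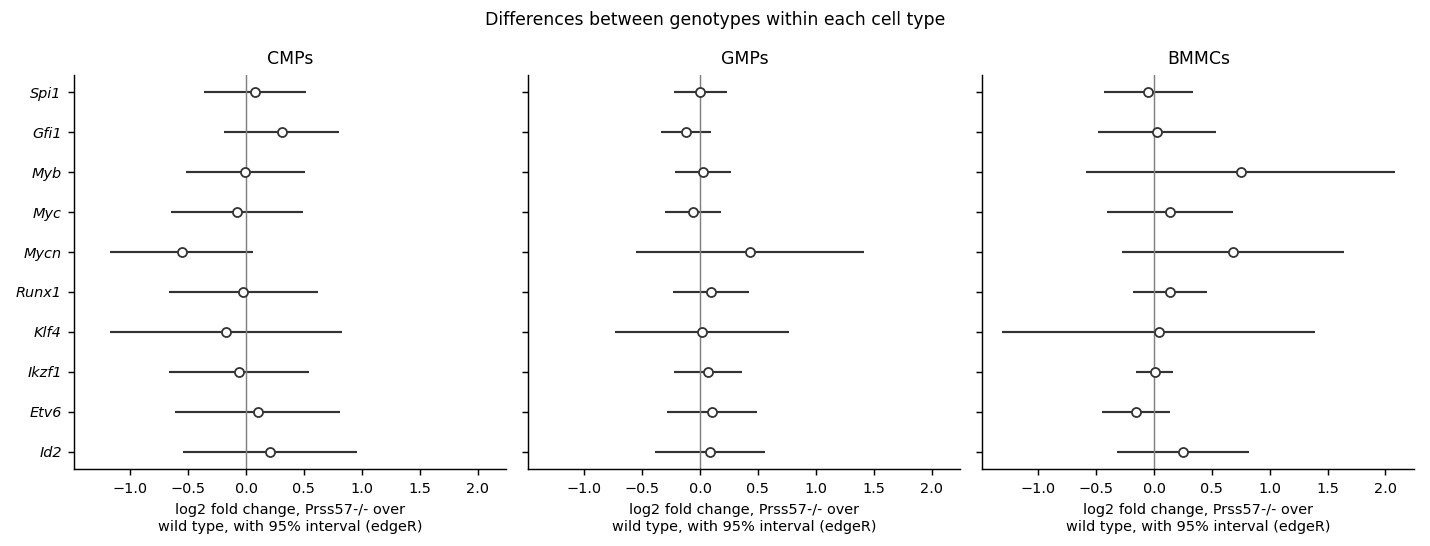
Log2 fold changes of Prss57-/- over wild type in CMPs, GMPs and BMMCs for each gene, with 95% intervals from edgeR. All 30 intervals include 0, and the widest are those of Myb and Klf4 in BMMCs, from -0.59 to 2.08 and from -1.31 to 1.40.

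Whether the genotype acted differently in the 2 progenitor types was tested as an interaction over the 16 progenitor libraries. None of the 10 genes and 0% of the 15900 genes tested passed by edgeR, and the 10 genes also did not pass by limma voom or DESeq2. Mycn had the 1 unadjusted p under 0.05, at 0.0452, with a difference of 0.97 on the log2 scale (95% interval 0.02 to 1.91), an adjusted p of 1.000 and 5 to 21 reads in each GMP library. Gfi1 followed with -0.44 (95% interval -0.94 to 0.06).

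The 10 genes also varied between libraries of the same group. Among the CMPs, Runx1, Ikzf1 and Etv6 were highest in Prss57-/- library 1, at 11.8, 50.9 and 50.3 normalized RPKM, followed by wild-type library 3, at 9.92, 46.5 and 37.3. They were lowest in Prss57-/- library 2, at 4.55, 21.8 and 17.9. These 3 genes are among the longer ones, at percentiles 97.4, 83.1 and 84.0 of the length constant of 11345 genes with at least 10 reads in every library, and Spi1 is at percentile 29.9. The pattern was not limited to longer genes. Myc, at percentile 38.4, and Myb, at 62.5, were also lowest in Prss57-/- library 2, at 84.2 and 86.1 normalized RPKM. They were highest in the same pair of libraries, Myc at 181 in wild-type library 3 and 173 in Prss57-/- library 1, and Myb at 151 and 167. Spi1 was lowest in Prss57-/- library 2 as well, at 45.1.

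The libraries that stood apart for these genes also stood apart in how all genes depended on length. The slope of a library's log2 CPM, the counts scaled to library size, on the log2 of the length constant, against the mean of its cell type and over 11496 genes, was 0.31 per doubling in Prss57-/- CMP library 1, 0.23 in wild-type CMP library 3 and -0.39 in Prss57-/- CMP library 2. The other 5 CMP libraries had slopes of -0.06 to 0.03. Among GMPs, wild-type library 1 had the lowest slope, at -0.21, and the lowest Runx1 and Etv6, at 7.92 and 29.2. The part of this slope in the levels of any of these genes was not tested. The slopes of the BMMC libraries ran from -0.08 to 0.04.

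**Figure D5:**
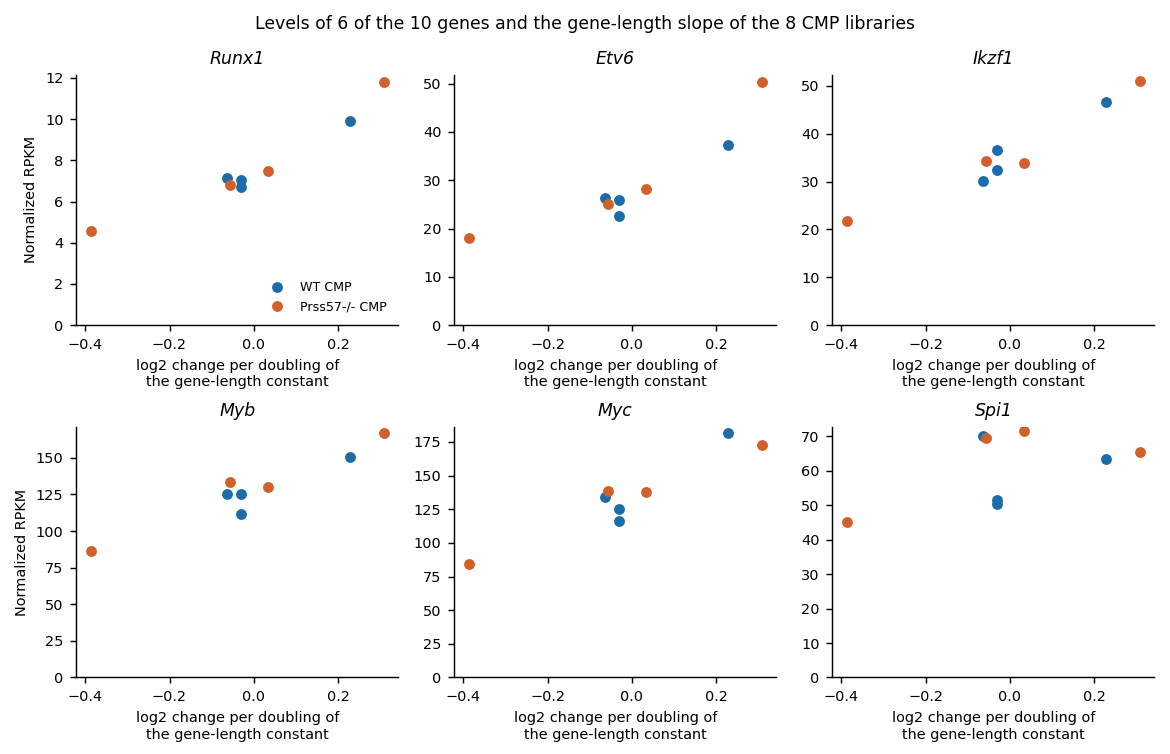
Normalized RPKM of Runx1, Etv6, Ikzf1, Myb, Myc and Spi1 in the 8 CMP libraries (blue wild type, orange Prss57-/-) against the library's slope of log2 CPM on the log2 of the gene-length constant. All 6 genes are lowest in the library at -0.39, and Runx1, Etv6, Ikzf1, Myb and Myc are highest in the libraries at 0.23 and 0.31, while the highest Spi1 value, 71.4, is at a slope of 0.03.

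The order of the group means shows which levels can be told apart. For Spi1, GMPs (145 in both genotypes) and BMMCs (123 in wild-type and 119 in Prss57-/- libraries) overlapped in their libraries, and Prss57-/- BMMC library 3 also overlapped with the CMPs. For Gfi1 the order was GMPs, BMMCs and CMPs, with no overlap between cell types, and for Id2, Klf4 and Runx1 it was BMMCs, GMPs and CMPs. For Klf4 and Runx1 this order holds for the means, since Klf4 in Prss57-/- BMMC library 3 was at 1.23 and the Runx1 libraries of GMPs and CMPs overlapped. For Myb the order was GMPs, CMPs and BMMCs, where the Prss57-/- GMPs and CMPs overlapped, and for Mycn it was CMPs, BMMCs and GMPs, where CMPs and BMMCs overlapped in Prss57-/- mice. The GMPs and CMPs overlapped for Myc, and both lay above the BMMCs. For Etv6 each group overlapped with the next. Ikzf1 had the narrowest range, with group means of 35.2 to 45.6 normalized RPKM, and each group overlapped with the next.

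For each of the 10 genes, the genes with the most similar pattern were found as those with the smallest root mean square difference in centred log2 CPM over the 6 group means, among 16758 genes. The nearest to Spi1 were Gm15344 and Uggt1 (0.06 each), to Gfi1 Mapk13 (0.08) and Atrn (0.20), and to Myb Ighm (0.09) and Egln3 (0.12). Nearest to Myc was Aldh16a1 (0.02), to Runx1 Dnajc16 and Gcc1 (0.03 each), to Ikzf1 Ptpn11 (0.02), and to Etv6 Magt1 (0.03) and Ncl (0.04). Klf4 lay nearest to F830045P16Rik (0.19) and Gpr84 (0.20), Id2 to Ahnak (0.07) and Ddr1 (0.17), and Mycn to Trib2 (0.40) and Pf4 (0.43). Mycn thus had the least similar neighbours of the 10, on a pattern that spanned 6.02 on the log2 scale.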

How the data were processed

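Per the sources of the study, 50-base single-end reads were mapped by the authors onto GRCm38 using GSNAP within HTSeqGenie, and unique alignments falling in the exons of a gene were deposited as raw counts. The authors also deposited normalized RPKM, which are these counts scaled by 1 factor per gene, taken here as its length, and 1 size factor per library. Whether counting used the strand is not given in the sources used here. Positions came from GENCODE M21, which matched 52403 of 52636 genes.

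Groups were compared on the deposited counts in fits of the compared groups alone (4 progenitor groups for the interaction), with TMM normalization, filterByExpr and the robust quasi-likelihood test of edgeR 4.0.16 in R 4.3.3. All p-values were adjusted by Benjamini-Hochberg across every gene of a fit. The study itself used voom, and limma 3.58.1 voom was therefore an alternative, together with DESeq2 1.42.0, RLE size factors, no filter on low counts, a block for the replicate number, leaving out each library, an adjusted p under 0.05 and all 26 libraries in 1 fit. The fits were also run on counts simulated with known changes in a small share of the genes. That simulation held no outlying library, no slope on gene length and no comparison in which most genes differ, so it does not test the fits there. Tables and figures used pandas 2.3.3, numpy 2.4.6 and matplotlib 3.10.9 under Python 3.11.15.

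The 10 genes, the related lists and the marker lists were chosen with earlier results of these data known. From each related list, up to 2 genes per direction were named by rule. These had the smallest adjusted p among genes that differed the same way in both genotypes. Beyond this rule, Cd34, Kit and Bcl2 complete the Myb targets in the progenitor comparison. For BMMCs over GMPs, Ikzf5 and Chd4 complete the Ikaros list. Mnt, Max, Mxd3 and Mxi1 were added there as further Myc network genes that differed in wild-type mice. Likeness used log2 CPM (prior count 2), and for each of the 10 genes the 2 nearest were named. A few genes that these rules select are not reported here. Csf1r, C1qa and Gata1 in Prss57-/- BMMC library 3 were chosen after their values were seen.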

Additional observations from a re-analysis of the deposited data

Results flagged for a closer look

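In 5 of the 60 groups of libraries examined, 1 library lay farther from the others than Dixon's test allows, where chance alone gives about 1 in 20 groups, or 3. Of these 5, 3 concerned Prss57-/- BMMC library 3. In that library Myb was at 45.2 normalized RPKM, against 6.03 to 14.4 in the other 4 Prss57-/- BMMC libraries. Runx1 was at 37.4, against 22.1 to 26.4. Etv6, by contrast, was low at 20.1, against 31.9 to 34.2. The same library had a sum of macrophage and dendritic cell markers of 165 normalized RPKM, against 1740 to 2955 in the other 9 BMMC libraries, and the part of this in the values of Myb, Runx1 and Etv6 was not tested.

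Mycn was at 0.0379 normalized RPKM in wild-type GMP library 1, from 5 reads, against 0.0998 to 0.106 in the other 3 libraries, from 15 to 17 reads. Runx1 was at 9.92 in wild-type CMP library 3, against 6.73 to 7.15 in the other 3. That library also had the highest slope on gene length of the wild-type CMPs, at 0.23 per doubling against -0.06 to -0.03, and the part of the slope in this value was not tested.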

How the results depend on the processing

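Of the 90 member results (10 genes in 9 comparisons), 32 differed. Of their 502 values under alternatives, 0 reversed and 29 were no longer under the threshold. The 502 include the main fit read at an adjusted p under 0.05, which could not reverse or remove a call. In every alternative run, 28 of the 32 stayed under the threshold. The exceptions were Myb and Id2 between wild-type GMPs and CMPs, and Spi1 (wild-type) and Gfi1 (Prss57-/-) between BMMCs and GMPs. Myb had an adjusted p of 0.366 with all 26 libraries in 1 fit. Spi1 had 0.0785 in that fit, and Gfi1 0.0123 with RLE size factors. In Prss57-/- BMMCs over GMPs, Etv6 passed with DESeq2 (adjusted p 0.00895) and Klf4 with DESeq2 (0.00184) and with all 26 libraries (0.00153). None of the 690 values of the genotype and interaction results passed. The causes were not tested. Depth limits Mycn in GMPs, with 5 to 21 reads a library, and Klf4 in CMPs, with 34 to 165.

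The number of all genes that differed between wild-type GMPs and CMPs was 3140, against 4947 with DESeq2, 5664 at an adjusted p under 0.05 and 2075 (without wild-type CMP library 1) to 5128 (without wild-type GMP library 1) with 1 library left out. In Prss57-/- mice it was 1470, against 3199 with DESeq2, 3222 at 0.05, 3776 with all 26 libraries, and 798 (without GMP library 3) to 2895 (without CMP library 1), and it moved by over 1.5 times without any single library except CMP library 2. Between genotypes it was 1 in GMPs, against 4 with DESeq2, 2 at 0.05 and 1 to 2 with a library left out (2 without wild-type GMP library 1), and 1 in CMPs, against 3 with DESeq2.

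The main fits did not pair libraries by replicate number, since same-numbered libraries did not all deviate together. Their mean correlation exceeded that of other pairs between GMPs and CMPs, at 0.133 against -0.0473 in wild-type and 0.183 against -0.0589 in Prss57-/- mice. Between genotypes it was also higher in CMPs (0.156 against -0.0559), but lower in GMPs (-0.0141 against 0.00898) and in BMMCs (-0.0575 against 0.0239). Between wild-type GMPs and CMPs the deviations of same-numbered libraries correlated at -0.00107 to 0.268 and between Prss57-/- GMPs and CMPs at 0.0122 to 0.528, and in each pair of groups compared at most 2 libraries correlated best with their own number. With the replicate number as a block, 3631 genes differed between wild-type GMPs and CMPs and 1396 between Prss57-/- GMPs and CMPs, and 10067, 10560 and 6839 differed in BMMCs over wild-type GMPs, wild-type CMPs and Prss57-/- GMPs. Of the 10 genes 6, 4, 7, 8 and 5 differed under the block, in the same order, and 0 between genotypes. The calls lost under the block were Spi1 in wild-type BMMCs over GMPs (adjusted p 0.0160) and Gfi1 in Prss57-/- BMMCs over GMPs (0.0127). Under the block Gfi1 and Klf4 reversed between genotypes in BMMCs (-0.0286 and -0.28), as did Myc in the interaction (-0.00265).

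All reversals, those under the block included, were of results that did not pass the test in the main fit. With limma voom, the genotype difference of Klf4 was 0.0629 in CMPs and -0.51 in BMMCs and that of Gfi1 -0.0354 in BMMCs, and the interaction was -0.0387 for Klf4 and 0.0798 for Etv6. The interaction of Myc was -0.00405 with DESeq2 and -0.00402 with RLE size factors, and without the filter that of Etv6 was 0.0126 and Ikzf1 in Prss57-/- BMMCs over GMPs was -0.00950. With 1 library left out, log2 values ranged as follows. Prss57-/- GMPs over CMPs gave -0.0284 to 0.30 for Myc, and Prss57-/- BMMCs over GMPs -0.0914 to 0.13 for Ikzf1. Between genotypes in GMPs the ranges were -0.0578 to 0.0520 for Spi1, -0.0403 to 0.0999 for Myb, -0.0130 to 0.19 for Runx1, -0.22 to 0.25 for Klf4, -0.0164 to 0.17 for Ikzf1, -0.0189 to 0.22 for Etv6 and -0.0803 to 0.21 for Id2. In CMPs they were -0.17 to 0.15 for Myb, -0.24 to 0.0930 for Myc, -0.33 to 0.16 for Runx1, -0.43 to 0.15 for Klf4, -0.31 to 0.11 for Ikzf1 and -0.27 to 0.28 for Etv6. In BMMCs they were -0.12 to 0.0923 for Spi1, -0.17 to 0.16 for Gfi1, -0.13 to 1.09 for Myb, -0.0669 to 0.31 for Myc, -0.0202 to 0.20 for Runx1, -0.15 to 0.35 for Klf4, -0.00730 to 0.0436 for Ikzf1 and -0.0370 to 0.38 for Id2. For the interaction they were -0.22 to 0.00281 for Spi1, -0.13 to 0.20 for Myb, -0.17 to 0.17 for Myc, -0.0770 to 0.42 for Runx1, -0.15 to 0.44 for Klf4, -0.0527 to 0.38 for Ikzf1, -0.19 to 0.38 for Etv6 and -0.32 to 0.0591 for Id2.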
